A study of Homo sapiens with 12 samples.

Results

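The collagen genes were examined in 2 established human lines of melanoma, A375 and SK-MEL-28, as the rows of the gene count table whose symbol reads COL, a number, A and a number. The rule found 44 rows with 44 different symbols among 58307 named rows. By structure, 11 of them encode fibrillar collagens, 8 encode collagens of the basement membrane and 25 encode other collagens. Members were taken by symbol and not by their level.

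The study asked how rapamycin, an inhibitor of the kinase mTOR and an inducer of autophagy, alters the response of melanoma cells to etoposide, a topoisomerase II poison. Each cell line was sequenced after etoposide and after etoposide + rapamycin, in 3 libraries per group and 12 in all. Every group received etoposide, and no untreated or rapamycin-only group was part of this comparison. The dose and time of the sequenced cells are not given in the sources used here. Both are single lines, so tests between A375 and SK-MEL-28 rest on the spread between libraries and not on that between tumors.

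Total counts ranged from 28189501 to 32499337 per library, and the collagen genes took 0.245% to 0.384% of them. The lineage markers of melanocytes were checked before the comparisons. SOX10, a transcription factor of neural crest cells and melanocytes, lay between 166 and 581 CPM (read counts relative to the TMM-scaled library size), and MITF, the transcription factor of the pigment program, between 12.1 and 29.7 CPM. The SOX10 gene overlaps POLR2F on the opposite strand, and the part of POLR2F in its counts was not tested. Libraries within a group also differed, as the 7 melanocyte markers summed to 195 to 446 CPM in SK-MEL-28 with rapamycin. The pigment genes were low in all 12 libraries, with TYR at 0 to 0.196 CPM, MLANA at 0.358 to 1.37 CPM and PMEL at 1.54 to 2.99 CPM. DCT had 0.202 to 0.820 CPM in A375 and 1.27 to 2.16 CPM in SK-MEL-28, and TYRP1 had 0.370 to 0.752 and 1.21 to 1.82 CPM, so both were higher in every SK-MEL-28 library. SK-MEL-28 is commonly described as a pigmented line, and TYR was at most 0.0654 CPM in the libraries labelled SK-MEL-28. The identity of the lines was not tested, and their names are used here as the labels give them. Of the fibroblast markers that are no collagens, THY1 stayed at 0 to 0.228 CPM and FAP at 0 to 1.82 CPM, whereas ACTA2 lay between 49.4 and 72.0 CPM, PDGFRB between 11.1 and 21.2 CPM, PDGFRA between 3.93 and 6.71 CPM and DCN between 0.839 and 6.80 CPM. LUM, a proteoglycan of collagen fibrils, had 6.15, 7.42 and 8.23 CPM under etoposide and 4.11, 5.14 and 3.93 CPM with rapamycin in A375. In SK-MEL-28 it had 28.9, 22.2 and 25.7 CPM and then 14.9, 16.7 and 17.1 CPM. LUM fell in both lines, by 0.73 and 0.66 on the log2 scale (adjusted p = 0.00502 and 0.000806). DCN, a related proteoglycan, fell by 0.63 in A375 (adjusted p = 0.0172), and FAP fell by 0.99 in SK-MEL-28 (adjusted p = 0.04996). The 7 fibroblast markers summed to 82.3 to 83.7 CPM under etoposide and 78.2 to 82.4 CPM with rapamycin in A375, and to 96.2 to 106 and 111.5 to 112 CPM in SK-MEL-28, most of it from ACTA2. In SK-MEL-28 this sum was higher with rapamycin although LUM and FAP fell, so the 7 markers did not all move the same way. The part of these markers in the collagen levels was not tested. The keratinocyte markers KRT5 and TP63 stayed at 0 to 0.265 and 0 to 0.246 CPM, and KRT14 lay between 4.84 and 9.98 CPM. Of the endothelial markers, CDH5 stayed at 0 to 0.849 CPM, PECAM1 lay between 1.27 and 6.08 CPM and VWF between 1.75 and 3.21 CPM.

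Collagens are proteins of the extracellular matrix in which 3 chains wind into a triple helix, and each chain has its own gene. Fibrillar collagens assemble into the banded fibers of skin, bone and vessel walls, type IV collagen forms the network of basement membranes, and the remaining types bead along cell surfaces, decorate fibrils, cross the plasma membrane or anchor the epidermis. In skin, type IV and type XVII collagen belong to the boundary that melanocytes rest on and melanoma cells cross.

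To find which collagens each line expressed, a gene was counted as expressed when it reached 1 CPM in every library of at least one group of that line. By this measure 27 collagens were expressed in A375 and 29 in SK-MEL-28. All 27 of A375 were also expressed in SK-MEL-28, and COL14A1 and COL9A1 passed in SK-MEL-28 alone. In both lines 7 of 11 fibrillar and 7 of 8 basement membrane collagens were expressed, with 13 of 25 other collagens in A375 and 15 of 25 in SK-MEL-28. The remaining 15 genes passed in neither line. They included COL1A2 and COL3A1, the partner of COL1A1 in type I collagen and the chain of type III collagen, which had at most 10 and 11 counts in any library. COL2A1, the cartilage collagen, had 16 to 55 counts, COL11A1 had 13 to 41 and COL4A3 had 5 to 24. These low counts do not show that the genes were silent.

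Levels of different genes were compared as CPM per kilobase of exon, with the exons of the Ensembl canonical transcript. COL9A3, a chain of the fibril-associated type IX collagen, had the highest level in both lines. Under etoposide it stood at 263.6, 292 and 267.5 CPM per kilobase in A375, and at 131, 152 and 149 in SK-MEL-28. The A375 libraries were all above those of SK-MEL-28. Exons of COL9A3 share 155 bases with TCFL5 on the opposite strand, as those of COL18A1 share 1563 with SLC19A1 and those of COL19A1 share 85 with LMBRD1. Among further members, COL4A3 shares 838 such bases, COL5A3 270 and COL15A1 137 with other genes. The strand used for counting is not given, so reads from these stretches cannot be told apart.

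COL6A1, a chain of the beaded type VI collagen of cell surfaces, was the next in both lines. Under etoposide its level was 124, 123 and 112 CPM per kilobase in A375, while SK-MEL-28 had 76.3, 82.5 and 81.9. COL6A2, its partner chain, had 58.0, 59.1 and 54.5 CPM per kilobase in A375, while SK-MEL-28 had 30.9, 36.5 and 34.7. Both genes were higher in each A375 library than in any SK-MEL-28 library of the same treatment. COL4A2, of the basement membrane network, had 78.9, 75.0 and 69.6 CPM per kilobase in A375, while SK-MEL-28 had 66.9, 72.2 and 69.7, which overlapped. COL4A1, the other chain of the same heterotrimer, had 42.3, 38.7 and 37.4 CPM per kilobase in A375, while SK-MEL-28 had 35.8, 37.1 and 35.4. Each A375 library lay above each SK-MEL-28 library. COL5A2, a chain of the fibril-nucleating type V collagen, had 14.6, 14.6 and 13.4 CPM per kilobase in A375, while SK-MEL-28 had 43.6, 44.6 and 43.2. It was the only one of these genes that was higher in SK-MEL-28.

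The order under etoposide in A375 was COL9A3, COL6A1, COL4A2, COL6A2 and COL4A1, and none of these neighbours overlapped in their libraries. In SK-MEL-28 it was COL9A3, COL6A1, COL4A2, COL5A2 and COL4A1, again without overlap, whereas COL4A1 and the next gene, COL6A2, did overlap. Further down in A375, COL16A1 overlapped with COL18A1, COL19A1 with COL27A1, COL27A1 with COL5A3, and COL5A3 with COL5A2. COL5A2 did not overlap with the next gene, COL22A1. The 5 highest genes held 77.9% of the summed collagen level in A375 and 73.0% in SK-MEL-28, and the 10 highest held 90.3% and 90.1%. This order depended on the exon length used. The union of all annotated exons of COL4A2 has 19271 bases, against 6446 in the canonical transcript, and puts COL4A2 below COL6A2 in A375. In mean CPM without division by length, COL4A2 was above COL9A3 in SK-MEL-28 under etoposide, at 449 against 360.

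**Figure D1:**
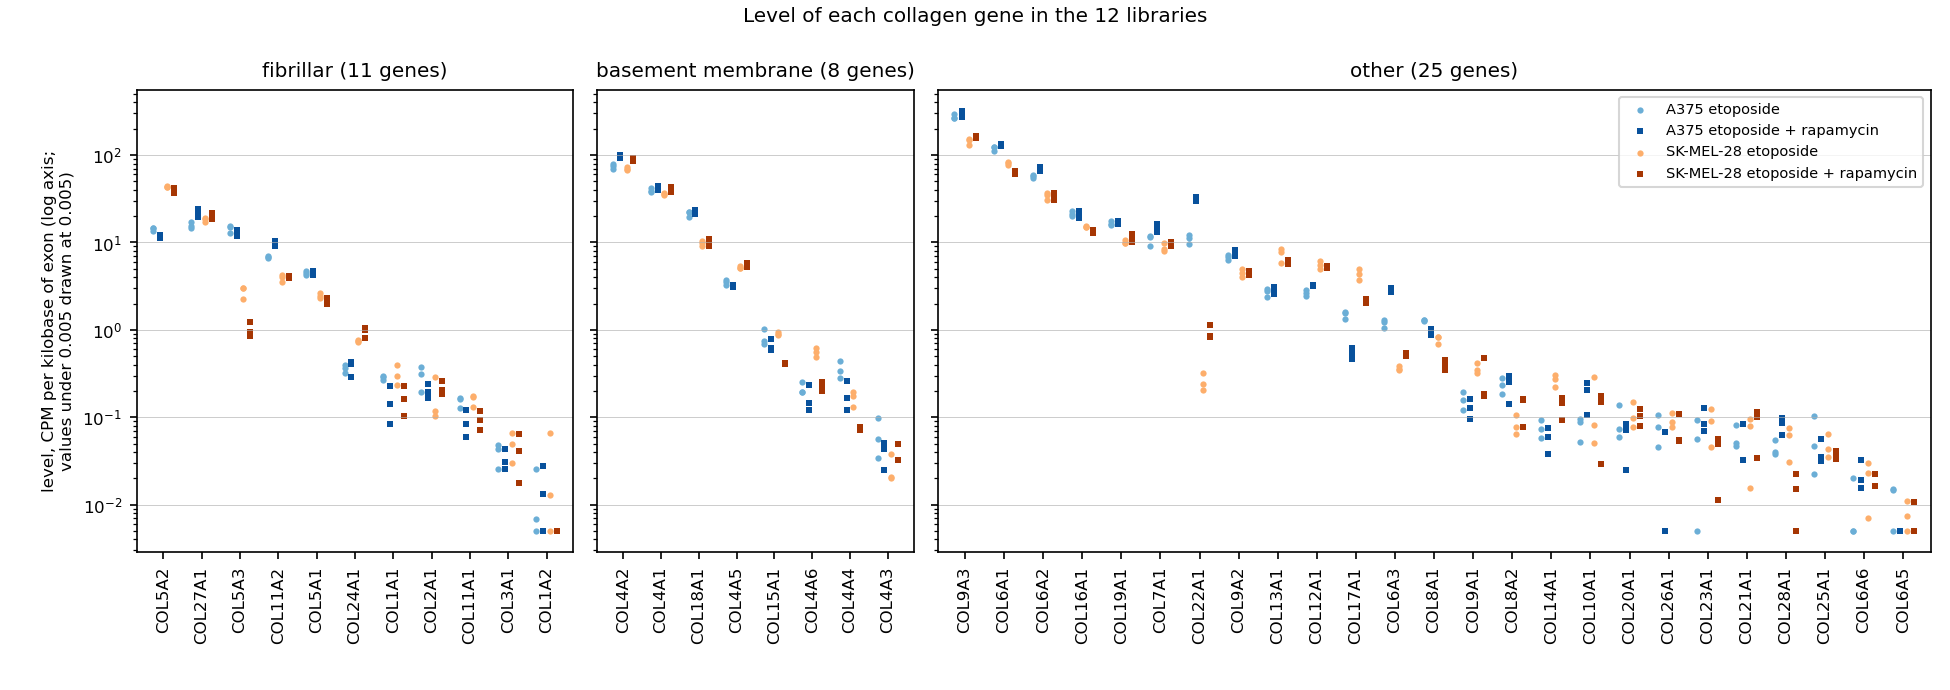
Level of each of the 44 collagen genes in CPM per kilobase of exon on a log axis, with 1 point per library and the genes ordered by mean level within the fibrillar, basement membrane and other classes. The levels span from COL9A3, above 130 in every library, down to genes at or near 0 such as COL1A2, and COL22A1 and COL5A3 show wide gaps between A375 (blue) and SK-MEL-28 (orange and brown).

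The RNA levels of the chains of one collagen type were unequal, in CPM per kilobase. These ratios depend on the exon length used, and protein was not measured. COL6A3, the long remaining chain of type VI collagen, reached 0.992% of the level of COL6A1 in A375 under etoposide and 0.454% in SK-MEL-28. COL6A2 stood at 0.476 and 0.424 times COL6A1 in the same groups. COL9A1, the first chain of type IX collagen, had 0.0578% ± 0.0144 (SD, n = 3) of the level of COL9A3 in A375 and 0.250% ± 0.0235 in SK-MEL-28. COL4A2 was at 1.89 times COL4A1 in A375 under etoposide and at 1.93 times in SK-MEL-28.

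The classes were then compared by their summed level. Under etoposide in A375 the fibrillar genes summed to 56.7 ± 3.68 CPM per kilobase, the basement membrane genes to 140 ± 8.42 and the other genes to 529 ± 24.6 (SD, n = 3). In SK-MEL-28 the sums were 72.7 ± 1.89, 122 ± 3.90 and 317 ± 18.7. The fibrillar class held 7.82% ± 0.259 of the summed level in A375 and 14.2% ± 0.456 in SK-MEL-28, and the basement membrane class held 19.3% ± 0.805 and 23.9% ± 0.387. The other class held 72.8% ± 1.05 and 61.9% ± 0.836, most of it from COL9A3, COL6A1 and COL6A2. The libraries of the lines did not overlap in any of these shares. With rapamycin the fibrillar share was 7.41% ± 0.160 in A375, against 12.8% ± 0.116 in SK-MEL-28, and the basement membrane share was 19.9% ± 0.269 and 27.9% ± 0.696. Shares over the members were not tested. They depended on the exon length used, and with the union of all annotated exons the basement membrane share became 13.8% in A375 and 16.3% in SK-MEL-28. With that length the fibrillar share in SK-MEL-28 was above the basement membrane share, the reverse of the order with the canonical transcript. In A375 the fibrillar share stayed below it.

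**Figure D2:**
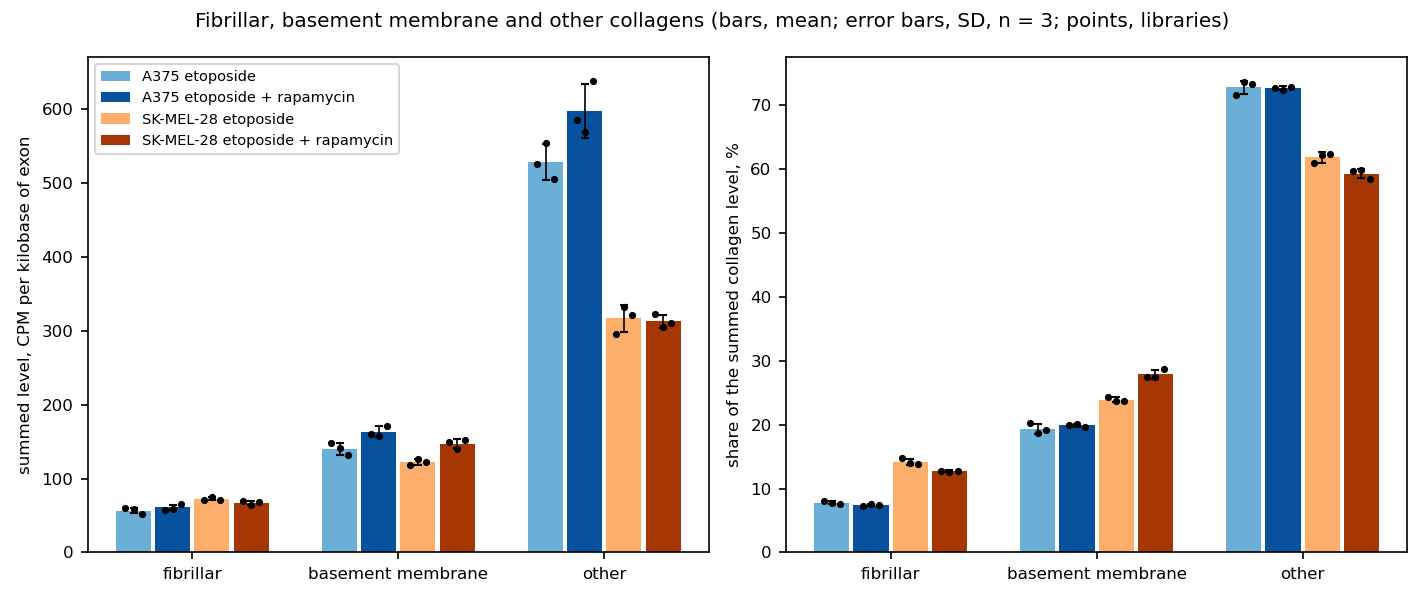
Summed level (left, CPM per kilobase of exon) and share of the summed collagen level (right, %) for the fibrillar, basement membrane and other collagens, with bars for the mean, error bars for the SD of 3 libraries and points for the libraries. The fibrillar share was 7.82% in A375, against 14.2% in SK-MEL-28 under etoposide, and the basement membrane share in SK-MEL-28 was 23.9% under etoposide and 27.9% with rapamycin.

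To ask which collagens responded when rapamycin was added, a gene was called when edgeR gave it an adjusted p under 0.05 with a fold change above 1.5. In A375, 4 of 36 collagens that passed the low-count filter were called, 2 higher and 2 lower, beside 5.89% of all 18844 genes tested, split into 3.09% higher and 2.8% lower. In SK-MEL-28, 8 of 35 were called, 1 higher and 7 lower, beside 4.99% of all 18897 genes, split into 1.85% higher and 3.14% lower. By adjusted p alone, 12 of 36 passed in A375, beside 28.1% of all genes, and 13 of 35 in SK-MEL-28, beside 19%. The libraries of the treatments did not overlap for 16 of 36 collagens in A375, beside 42.5% of all genes, and for 18 of 35 in SK-MEL-28, beside 35.9%. The median log2 change of the tested collagens was -0.02 in A375, against -0.07 in SK-MEL-28, and that of all genes was -0.01 and 0.01. COL22A1, COL17A1 and COL4A4 were called in both lines in the same direction. They make up 3 of the 4 called in A375 and 3 of the 8 in SK-MEL-28. The share of all genes called in both lines was not counted, so this overlap has no background beside it. In such bulk samples fewer cells of a type and less RNA per cell cannot be told apart. 7 collagens, among them COL1A2 and COL3A1, were tested in neither line.

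**Figure D3:**
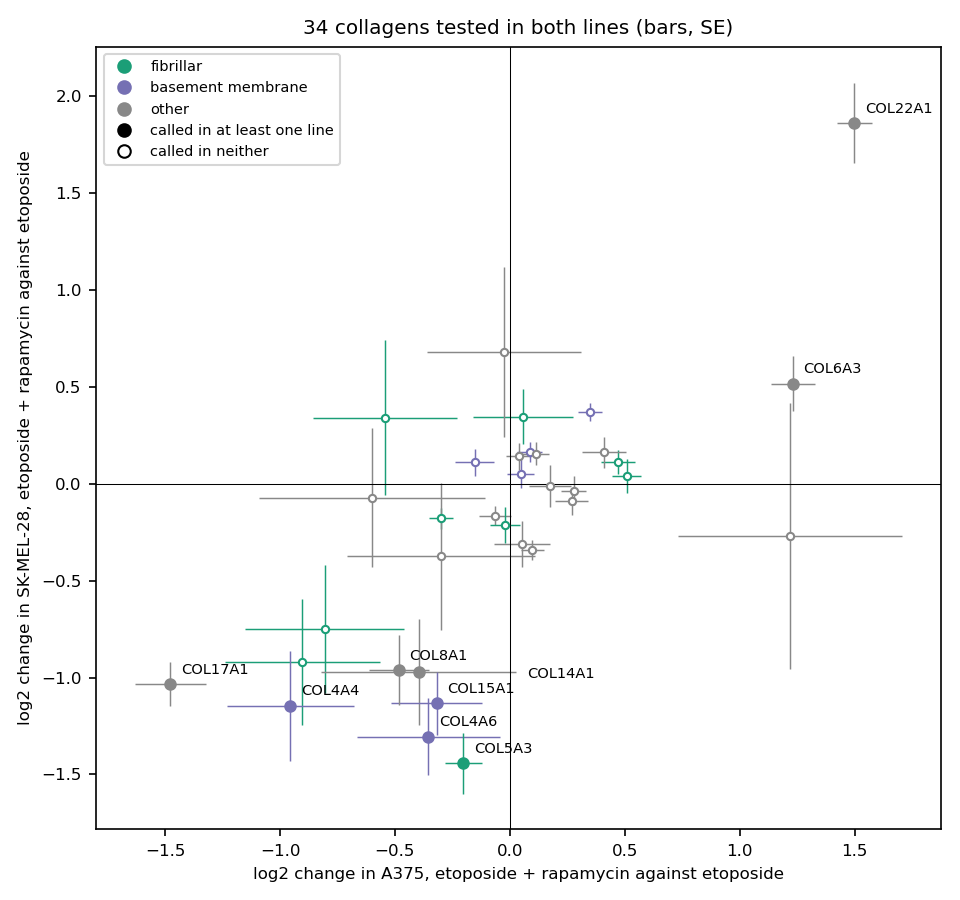
Log2 change with rapamycin in A375 (horizontal) and SK-MEL-28 (vertical) for the 34 collagens tested in both lines, with bars for the SE, colors for the class and filled points for genes called in at least one line. COL22A1 lies at the upper right, 1.5 in A375 and 1.86 in SK-MEL-28, and the called fibrillar and basement membrane genes lie below 0 in both lines.

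Among the fibrillar collagens, 0 of 9 tested genes were called in A375 by edgeR, beside 5.89% of all genes, and 0 by DESeq2. In edgeR 6 of them had an unadjusted p under 0.05. In SK-MEL-28, 1 of 9 was called, and it was lower, beside 4.99% of all genes called in either direction. With so few genes tested, these counts do not set the class apart from all genes. The median log2 change of the fibrillar genes was -0.20 in A375, against -0.18 in SK-MEL-28. The called gene was COL5A3 (ENSG00000080573 in GENCODE), an alternative chain of type V collagen, at chr19:9959561-10010504 on the minus strand of GRCh38. In SK-MEL-28 it had 13.8, 18.5 and 18.7 CPM under etoposide and 7.72, 5.89 and 5.24 CPM with rapamycin. The groups did not overlap, and COL5A3 fell 2.72-fold (log2 change -1.44, SE 0.157, adjusted p = 4.04e-05). In A375 it had 93.9, 96.3 and 78.6 CPM under etoposide and 73.9, 74.3 and 86.1 CPM with rapamycin. These groups overlapped, and the log2 change was -0.20 (SE 0.0803, adjusted p = 0.0776).

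COL5A3 had the largest difference in response between the lines among the collagens called, so the 250 bases before its start are shown from RefSeq (GRCh38.p14), chr19:10010505-10010754 on the minus strand. Capitals mark the CCAAT box (CCAAT) and the GC box (GGGCGG), searched on both strands together with the TATA box (TATAAA), which was not found in this window.
COL5A3: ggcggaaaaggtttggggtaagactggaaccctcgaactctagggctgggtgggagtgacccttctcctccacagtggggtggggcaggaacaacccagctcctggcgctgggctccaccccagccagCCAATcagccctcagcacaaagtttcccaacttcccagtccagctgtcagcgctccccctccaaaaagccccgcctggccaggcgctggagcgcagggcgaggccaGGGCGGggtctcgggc
Of all 35116 such windows, 32% held a CCAAT box, 42.6% a GC box and 10.7% a TATA box. The 32 collagens searched had 44 windows in all. Counted by gene, 11 of the 32 held a CCAAT box, 21 a GC box and 7 a TATA box. A gene with several windows has more chances of a match, so these counts cannot be set against the shares of single windows. A match describes the letters and not a bound site.

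COL11A2, a minor chain of cartilage fibrils, and COL27A1, a fibrillar collagen of cartilage and other tissues, had log2 changes of 0.51 (SE 0.062, adjusted p = 9.02e-05) and 0.47 (SE 0.0748, adjusted p = 0.000602) in A375, under the fold threshold. In SK-MEL-28 the log2 change of COL27A1 was 0.11 (adjusted p = 0.255). COL5A2 had log2 changes of -0.30 in A375 (SE 0.052, adjusted p = 0.00104) and -0.18 in SK-MEL-28 (SE 0.0541, adjusted p = 0.036), both under the fold threshold. It kept its high level in SK-MEL-28, with 41.7, 37.1 and 37.6 CPM per kilobase after rapamycin, against 12.1, 11.2 and 11.4 in A375. COL1A1, the major chain of type I collagen, had log2 changes of -0.90 (SE 0.337, adjusted p = 0.0648) and -0.92 (SE 0.324, adjusted p = 0.0659), which did not pass.

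Among the basement membrane collagens, 1 of 8 tested genes was called in A375 and 3 of 7 in SK-MEL-28. All these calls were lower, beside 2.8% and 3.14% of all genes called lower. Their median log2 change was -0.24 in A375, against 0.05 in SK-MEL-28. The called genes were COL4A4, COL4A6 and COL15A1, low members of the class, whereas the abundant COL4A1, COL4A2 and COL18A1 were not called. The 3 endothelial markers had sums of 6.66 to 9.35 CPM under etoposide and 5.85 to 6.59 CPM with rapamycin in A375, and of 4.70 to 5.99 and 3.49 to 3.96 CPM in SK-MEL-28. Their part in these values was not tested.

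COL4A4 (chr2:227002714-227164453, minus strand), a chain of the type IV network of kidney and ear, had 3.34, 4.41 and 2.79 CPM under etoposide and 2.56, 1.68 and 1.21 CPM with rapamycin in A375. In SK-MEL-28 it had 1.31, 1.92 and 1.73 CPM and then 0.775, 0.714 and 0.748 CPM. The treatments did not overlap in either line, although all values were low. COL4A4 fell 1.94-fold in A375 (log2 change -0.96, SE 0.276, adjusted p = 0.0212) and 2.21-fold in SK-MEL-28 (log2 change -1.15, SE 0.283, adjusted p = 0.013). The A375 call was lost without etoposide replicate 2 (adjusted p = 0.0976) or without etoposide + rapamycin replicate 2 (0.0676) or replicate 3 (0.0886), and the SK-MEL-28 call without etoposide replicate 2 (0.0553). In A375 it was also lost when genes with as little as 1 count in any library were tested (0.0789). COL4A3, its head-to-head partner, had a log2 change of -0.66 in A375 (SE 0.514, adjusted p = 0.381) and was too low to be tested in SK-MEL-28.

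COL4A6 (chrX:108155607-108439497, minus strand), a type IV chain of epithelial and smooth muscle basement membranes, had 3.30, 3.71 and 4.12 CPM under etoposide and 1.32, 1.5 and 1.69 CPM with rapamycin in SK-MEL-28. The groups were well separated, and COL4A6 fell 2.47-fold (log2 change -1.3, SE 0.200, adjusted p = 0.000592). In A375 it had 1.31, 1.71 and 1.29 CPM and then 0.984, 1.58 and 0.806 CPM, which overlapped (log2 change -0.36, SE 0.311, adjusted p = 0.444). COL4A5, which starts 379 bases from COL4A6 on the opposite strand, had log2 changes of -0.15 in A375 (SE 0.0848, adjusted p = 0.206) and 0.11 in SK-MEL-28 (SE 0.0697, adjusted p = 0.32). Its level was far above that of COL4A6, which stood at 0.0618 times COL4A5 in A375 and 0.108 times in SK-MEL-28 under etoposide.

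COL15A1 (chr9:98943179-99070792, plus strand), which bridges fibrils to the basement membrane, had 4.91, 4.54 and 4.70 CPM under etoposide and 2.13, 2.18 and 2.15 CPM with rapamycin in SK-MEL-28. The libraries of each treatment lay close together, and COL15A1 fell 2.19-fold (log2 change -1.13, SE 0.162, adjusted p = 0.000348). In A375 it had 5.36, 3.62 and 3.94 CPM and then 3.23, 3.09 and 4.07 CPM, with overlap (log2 change -0.32, SE 0.196, adjusted p = 0.257). COL18A1, the source of endostatin, had log2 changes of 0.05 in A375 (adjusted p = 0.614) and 0.05 in SK-MEL-28 (adjusted p = 0.692).

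COL4A1 and COL4A2, the chains of the common type IV heterotrimer, have RefSeq starts 126 bases apart on opposite strands of chromosome 13. GENCODE also has a COL4A2 transcript that starts further upstream, at 110305812, so the stretch between the RefSeq starts lies in an intron of that transcript. The 100 bases next to the COL4A1 start are shown because they hold no annotated exon of either gene (RefSeq, GRCh38.p14, chr13:110307158-110307257, minus strand), with the CCAAT box and the GC box in capitals, here read on the reverse strand as ATTGG and CCGCCC.
COL4A1 and COL4A2: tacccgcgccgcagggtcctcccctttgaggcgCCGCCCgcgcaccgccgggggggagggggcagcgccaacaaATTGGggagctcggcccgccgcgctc
With rapamycin, COL4A2 had 92.5, 92.5 and 99.9 CPM per kilobase in A375, while SK-MEL-28 had 91.1, 86.6 and 92.7, above every etoposide library of the same line. Its log2 change was 0.35 in A375 (SE 0.0529, adjusted p = 0.000435) and 0.37 in SK-MEL-28 (SE 0.0478, adjusted p = 0.000156), which stayed under the fold threshold. COL4A1 had 42.3, 39.9 and 43.8 CPM per kilobase with rapamycin in A375, while SK-MEL-28 had 40.4, 38.3 and 42.7. Its log2 change was 0.09 in A375 (SE 0.0542, adjusted p = 0.27) and 0.16 in SK-MEL-28 (SE 0.0532, adjusted p = 0.0505). The level of COL4A2 relative to COL4A1 was 1.89 under etoposide and 2.26 with rapamycin in A375, while SK-MEL-28 had 1.93 and 2.23. The 3 ratios of each treatment did not overlap in either line, and this ratio was not tested.

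Among the other collagens, 2 of 19 tested genes were called higher and 1 lower in A375, beside 3.09% and 2.8% of all genes. In SK-MEL-28, 1 of 19 was called higher and 3 lower, beside 1.85% and 3.14%. Their median log2 change was 0.05 in A375, against -0.07 in SK-MEL-28.

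COL22A1, a fibril-associated collagen of tissue junctions such as that of muscle and tendon, had 78.0, 72.6 and 60.7 CPM under etoposide and 199, 190.4 and 209.7 CPM with rapamycin in A375. In SK-MEL-28 it had 2.06, 1.56 and 1.3 CPM and then 5.26, 5.43 and 7.19 CPM. The treatments were apart in both lines, at levels that differed widely between the lines. COL22A1 rose 2.83-fold in A375 (log2 change 1.5, SE 0.0774, adjusted p = 1.21e-07) and 3.63-fold in SK-MEL-28 (log2 change 1.86, SE 0.209, adjusted p = 4.98e-05).

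COL6A3 (chr2:237324003-237414328, minus strand), the third chain of type VI collagen, had 13.5, 13 and 11.2 CPM under etoposide and 28.8, 28.3 and 31.7 CPM with rapamycin in A375. In SK-MEL-28 it had 3.70, 4.04 and 3.76 CPM and then 5.46, 5.36 and 5.66 CPM. The groups did not overlap in either line. COL6A3 rose 2.35-fold in A375 (log2 change 1.23, SE 0.0956, adjusted p = 2.84e-06), and in SK-MEL-28 its log2 change of 0.52 (SE 0.14, adjusted p = 0.0213) stayed under the fold threshold. Its partner chains had smaller log2 changes. COL6A1 had a log2 change of 0.10 in A375 (SE 0.0497, adjusted p = 0.169) and of -0.34 in SK-MEL-28 (SE 0.0529, adjusted p = 0.000622), where the libraries with rapamycin had 65.9, 60.4 and 63.9 CPM per kilobase. COL6A2 had a log2 change of 0.28 in A375 (SE 0.0539, adjusted p = 0.00222) and of -0.04 in SK-MEL-28 (SE 0.0754, adjusted p = 0.797). With rapamycin COL6A3 stood at 2.18% of COL6A1 in A375 and at 0.823% in SK-MEL-28.

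COL17A1 (chr10:104031286-104085880, minus strand), a transmembrane collagen of the hemidesmosome, had 9.0, 8.71 and 7.5 CPM under etoposide and 3.02, 2.59 and 3.46 CPM with rapamycin in A375. In SK-MEL-28 it had 28.1, 24.2 and 20.8 CPM and then 11.6, 12.8 and 11.3 CPM. The treatments did not overlap in either line. COL17A1 fell 2.78-fold in A375 (log2 change -1.48, SE 0.154, adjusted p = 2.71e-05) and 2.05-fold in SK-MEL-28 (log2 change -1.03, SE 0.114, adjusted p = 4.31e-05). The 3 keratinocyte markers, of which KRT14 alone was above 1 CPM, summed to 9.43 to 10.4 CPM and 7.27 to 10.1 CPM in A375, and to 6.70 to 7.98 and 5.00 to 6.28 CPM in SK-MEL-28, in the same order of treatments. Their part in this result was not tested.

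COL17A1 was the one collagen of this class called lower in both lines, so its 250 bases before the start are shown (RefSeq, GRCh38.p14, chr10:104085881-104086130, minus strand), with the TATA box and the CCAAT box, the latter in reverse as ATTGG, in capitals.
COL17A1: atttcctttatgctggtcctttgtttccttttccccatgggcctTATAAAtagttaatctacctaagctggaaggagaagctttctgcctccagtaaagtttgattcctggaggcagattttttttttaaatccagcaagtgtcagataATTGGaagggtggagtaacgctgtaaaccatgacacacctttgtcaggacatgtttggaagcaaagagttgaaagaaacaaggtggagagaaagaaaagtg
G and C made up 40.4% of these bases, 66.0% of those of COL5A3 and 78.0% of those between COL4A1 and COL4A2.

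COL14A1, a fibril-associated collagen of dense connective tissue, had 2.19, 1.76 and 2.42 CPM under etoposide and 1.32, 0.750 and 1.17 CPM with rapamycin in SK-MEL-28. The groups did not overlap, and COL14A1 fell 1.96-fold (log2 change -0.97, SE 0.275, adjusted p = 0.0262). Its call was lost when etoposide replicate 1 (adjusted p = 0.0699) or 3 (0.1) was left out, or etoposide + rapamycin replicate 2 (0.0828) or 3 (0.0569), and with the minimum of 1 count in any library (0.065). In A375 it had 0.458, 0.752 and 0.593 CPM and then 0.597, 0.470 and 0.302 CPM (log2 change -0.40, SE 0.423, adjusted p = 0.537). COL8A1 (chr3:99638475-99799226, plus strand), a short-chain collagen of vessel walls and of Descemet membrane, had 4.58, 4.57 and 3.82 CPM under etoposide and 2.52, 1.93 and 2.21 CPM with rapamycin in SK-MEL-28. It fell 1.95-fold (log2 change -0.96, SE 0.181, adjusted p = 0.00258), without overlap of the groups. In A375 it had 7.10, 7.04 and 7.18 CPM and then 5.62, 4.84 and 4.84 CPM, also without overlap, and its log2 change of -0.48 (SE 0.13, adjusted p = 0.0147) stayed under the fold threshold. COL9A3 had log2 changes of 0.11 (adjusted p = 0.183) in A375 and 0.15 (adjusted p = 0.0873) in SK-MEL-28, with 294, 276 and 322 and with 165, 158 and 159 CPM per kilobase after rapamycin.

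**Figure D4:**
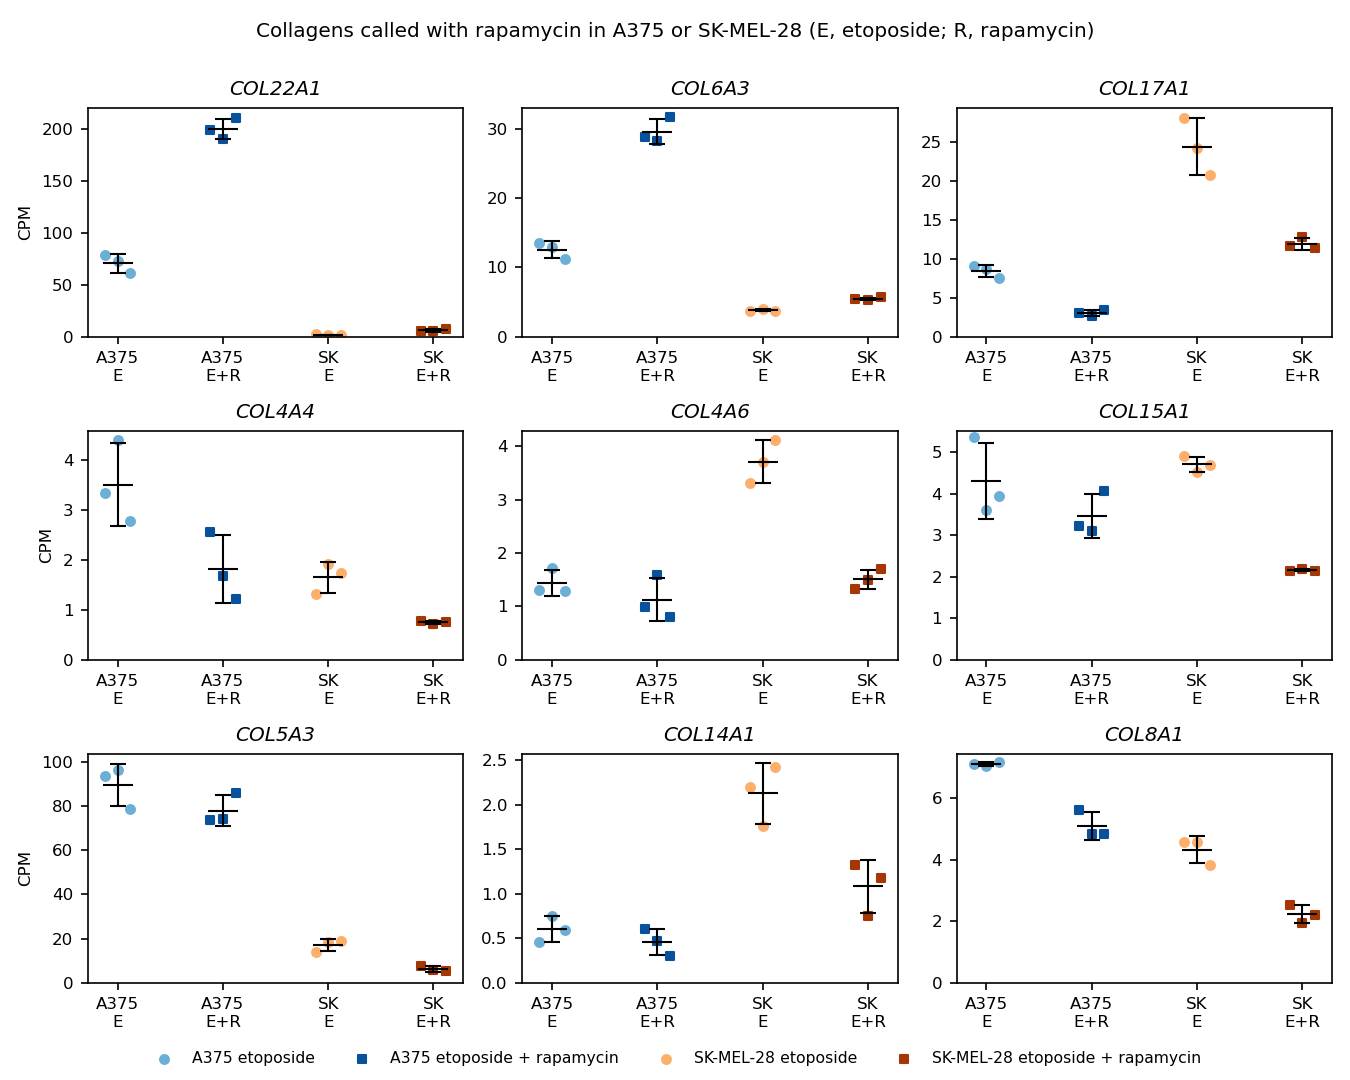
CPM of the 9 collagens called with rapamycin in at least one line, with 1 point per library, a dash for the mean and bars for the SD of 3 libraries in each group. COL22A1 rose in both lines, to 190.4 to 209.7 CPM in A375 and 5.26 to 7.19 CPM in SK-MEL-28, COL17A1 fell in both, and COL5A3, COL4A6, COL15A1 and COL14A1 were separated by treatment in SK-MEL-28 alone.

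The difference between the responses of the lines was tested in one fit of all 12 libraries. Of 37 collagens tested, 2 were called, COL5A3 and COL6A3, beside 1.62% of all 20101 genes. Both responses were lower in SK-MEL-28, as were those of 0.965% of all genes, and 0.657% were higher. The response of COL5A3 in SK-MEL-28 minus that in A375 was -1.23 on the log2 scale (SE 0.180, adjusted p = 0.000791). For COL6A3 the difference was -0.71 (SE 0.142, adjusted p = 0.00769), since its log2 change was 1.23 in A375 but 0.52 in SK-MEL-28. A test against a fold of 1.5 called neither difference. By adjusted p alone, COL6A1, COL11A2 and COL12A1 passed as well, 5 of 37 in all, beside 5.62% of all genes. The responses of COL22A1, COL17A1 and COL4A4 did not pass this test, with differences of 0.37 (SE 0.201, adjusted p = 0.322), 0.45 (SE 0.185, adjusted p = 0.174) and -0.18 (SE 0.395, adjusted p = 0.852). Neither did those of COL4A6, with a difference of -0.94 (SE 0.357, adjusted p = 0.14), or COL15A1, with -0.81 (SE 0.246, adjusted p = 0.0673).

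The lines were then compared with each other in each treatment. Under etoposide 22 of 35 collagens tested were called, 8 higher and 14 lower in SK-MEL-28, beside 13% of all 19025 genes, split into 5.7% higher and 7.32% lower. With rapamycin 22 of 36 were called, 7 higher and 15 lower, beside 14.9% of all 18817 genes, split into 6.29% higher and 8.66% lower. The libraries of the lines did not overlap for 26 of 35 collagens in the etoposide groups, beside 44.7% of all genes, and for 24 of 36 with rapamycin, beside 51.3%. These comparisons share no library, and 19 collagens were called in both. The share of all genes called in both comparisons was not counted. The median log2 difference of the tested collagens was -0.29 under etoposide and -0.35 with rapamycin, whereas that of all genes was 0.00 in each. By class under etoposide, 2 of 9 fibrillar genes were higher in SK-MEL-28 and 3 lower, 1 of 7 basement membrane genes was higher and 2 lower, and 5 of 19 other genes were higher and 9 lower.

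Of the fibrillar genes, the type V chains differed in opposite directions. COL5A2 was 3.08-fold higher in SK-MEL-28 under etoposide (log2 difference 1.62, SE 0.0514, adjusted p = 1.41e-10) and 3.35-fold higher with rapamycin. COL5A3 was 5.28-fold lower under etoposide (log2 difference -2.40, SE 0.112, adjusted p = 4.32e-09) and 12.4-fold lower with rapamycin (log2 difference -3.64, SE 0.112, adjusted p = 3.19e-11). COL5A1, the shared chain of type V collagen, was 1.83-fold and 2.08-fold lower. COL24A1, a fibrillar collagen of developing bone and cornea, was 2.05-fold and 2.51-fold higher, and COL11A2 was 1.73-fold and 2.39-fold lower. COL5A3 stood at 3.21 times COL5A1 in A375 under etoposide and at 1.11 times in SK-MEL-28.

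Of the basement membrane genes, COL18A1 was 2.19-fold lower in SK-MEL-28 under etoposide and 2.17-fold lower with rapamycin, and COL4A4 was 2.13-fold and 2.43-fold lower. COL4A6 was 2.57-fold higher under etoposide (log2 difference 1.36, SE 0.211, adjusted p = 0.000284) and was not called with rapamycin. COL4A5 was called with rapamycin, 1.77-fold higher, and COL15A1 was called with rapamycin, 1.61-fold lower. Without A375 etoposide + rapamycin replicate 3 the adjusted p of COL15A1 was 0.0645. COL4A1 and COL4A2 were called in neither comparison.

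Of the other genes, COL22A1 was 43.2-fold lower in SK-MEL-28 under etoposide (log2 difference -5.43, SE 0.143, adjusted p = 2.46e-11) and 33.5-fold lower with rapamycin (log2 difference -5.07, SE 0.093, adjusted p = 2.57e-13). No other collagen differed as widely between the lines. COL6A3 was 3.29-fold lower under etoposide and 5.40-fold lower with rapamycin, and COL9A3 was 1.91-fold and 1.85-fold lower. COL6A2 was 1.69-fold and 2.09-fold lower, COL8A1 1.65-fold and 2.30-fold lower, and COL9A2 1.52-fold and 1.73-fold lower. COL19A1, a fibril-associated collagen, was 1.63-fold and 1.51-fold lower. COL17A1 was 2.88-fold higher in SK-MEL-28 under etoposide (adjusted p = 7.49e-07) and 3.93-fold higher with rapamycin (adjusted p = 1.31e-07). COL13A1, a transmembrane collagen of cell adhesions, was 2.70-fold and 2.1-fold higher, COL12A1, on the surface of fibrils, was 2.06-fold and 1.61-fold higher, and COL14A1 was 3.51-fold and 2.36-fold higher.

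Several calls between the lines lay at a threshold. COL6A1 was 1.5-fold lower under etoposide, and without A375 etoposide replicate 1 or 2 or SK-MEL-28 etoposide replicate 1 its log2 difference was -0.56, -0.57 or -0.55, short of the fold threshold. It was also short of it under DESeq2 (-0.58), and 8 of its 15 alternatives lost the call. With rapamycin COL6A1 was 2.04-fold lower. COL16A1 was called with rapamycin alone, 1.53-fold lower, and was under the fold threshold without A375 etoposide + rapamycin replicate 3 or SK-MEL-28 etoposide + rapamycin replicate 2 (log2 difference -0.54 or -0.58). COL19A1 with rapamycin was under it without A375 replicate 2 or 3 or SK-MEL-28 replicate 2 (-0.58, -0.58 or -0.53), and COL9A2 under etoposide without A375 replicate 2 or SK-MEL-28 replicate 3 (-0.56 or -0.52). COL9A1 was called under etoposide, 2.26-fold higher, but not without A375 etoposide replicate 3 (adjusted p = 0.0521) or SK-MEL-28 etoposide replicate 2 (0.0571). COL14A1 with rapamycin lost its call without A375 replicate 2 or 3 or SK-MEL-28 replicate 1 or 3, with adjusted p of 0.0572, 0.088, 0.0938 and 0.0666. COL8A2, a network collagen of the cornea, was called under etoposide alone, 2.84-fold lower, from 9 to 40 counts per library.

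**Figure D5:**
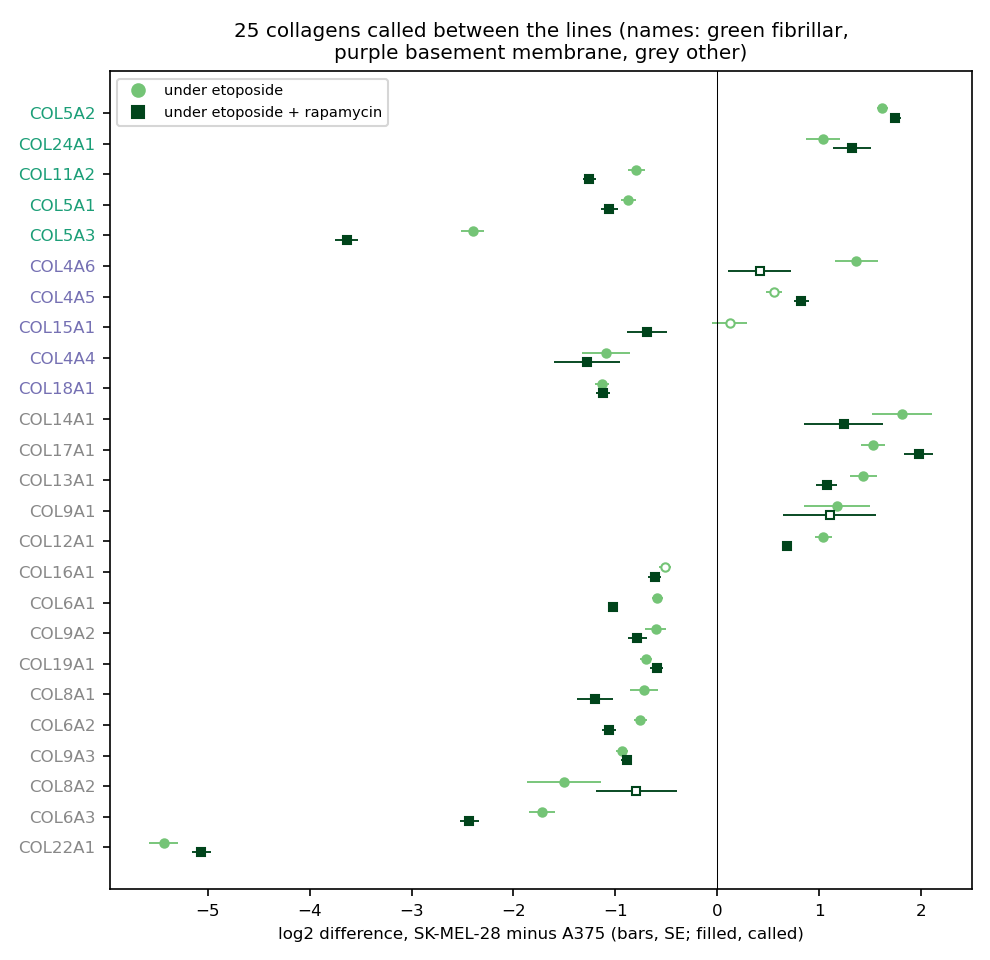
Log2 difference between SK-MEL-28 and A375 under etoposide (light circles) and with rapamycin (dark squares) for the 25 collagens called in at least one treatment, with bars for the SE and filled symbols for called genes. COL22A1 lies at -5.43 and -5.07, COL5A3 at -2.40 and -3.64, and COL5A2 and COL17A1 lie above 1.5 in both treatments.

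The proteins that make, cross-link, bind and remove collagen were given by a list of 71 genes in 5 roles, of which 66 were tested in each line. In A375, 3 were called higher and 8 lower, beside 3.09% and 2.8% of all genes, and in SK-MEL-28, 1 was called higher and 13 lower, beside 1.85% and 3.14%. Their median log2 change was -0.15 in A375, against -0.24 in SK-MEL-28, and that of all genes was -0.01 and 0.01. Of the 19 genes of chain modification and folding, 1 was lower in A375 and 3 in SK-MEL-28, beside 2.8% and 3.14% of all genes. PLOD2, a lysyl hydroxylase that prepares chains for cross-linking, fell in both, by 0.79 and 0.65 on the log2 scale (adjusted p = 1.09e-05 and 2.13e-06).

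Of 11 tested genes of propeptide processing and cross-linking, 2 were lower in A375 and 4 in SK-MEL-28, beside 2.8% and 3.14% of all genes. LOXL4, a lysyl oxidase-like enzyme of cross-linking, fell by 0.68 and 0.71 on the log2 scale (adjusted p = 3.67e-07 and 2.05e-05). PCOLCE2, an enhancer of propeptide removal, fell by 0.81 and 0.59 (adjusted p = 0.000177 and 0.00109). Of the receptors, 3 of 9 were lower in A375 and 2 of 8 in SK-MEL-28, beside the same shares. ITGA11, the integrin chain that binds fibrillar collagen, fell by 0.97 and 1.68 on the log2 scale (adjusted p = 8.87e-05 and 1.62e-06), and ITGA10, another collagen-binding integrin chain, fell by 1.00 and 0.68 (adjusted p = 5.93e-05 and 7.42e-05).

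Of the genes of breakdown and its inhibitors, 1 of 12 was higher and 2 lower in A375, beside 3.09% and 2.8% of all genes. In SK-MEL-28, 1 of 13 was higher and 3 lower, beside 1.85% and 3.14%. MMP9, a gelatinase that cleaves type IV collagen, rose by 1.78 and 0.66 on the log2 scale (adjusted p = 1.94e-07 and 0.0336). The genes called lower were CTSK and MMP8 in A375, and FAP, MMP1 and MMP13 in SK-MEL-28. Of 15 other basement membrane components, 2 were higher in A375, beside 3.09% of all genes, and 1 was lower in SK-MEL-28, beside 3.14%. LAMB3, a laminin chain of the epidermal basement membrane, rose by 0.79 in A375 (adjusted p = 8.67e-07), with a log2 change of -0.29 in SK-MEL-28 (adjusted p = 0.00316). HSPG2, the proteoglycan perlecan, rose by 0.75 in A375 (adjusted p = 0.000556), with a log2 change of 0.00 in SK-MEL-28 (adjusted p = 0.989).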

How the data were processed

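RNA was sequenced from 12 libraries after poly(A) selection, and per the study's methods the reads were aligned to GRCh38 with HISAT and quantified with StringTie, which the labels also name. The deposited table holds counts per gene, which the authors made from StringTie output; how coverage became counts, and the strand used, are not given in the sources used here. The 5 rows that name no gene, with 0.000991% to 0.00529% of the counts, were left out, and 0 columns belonged to no sample.

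The count fits used edgeR 4.0.16 in R 4.3.3 (TMM scaling, filterByExpr with a minimum count of 10, glmQLFit, glmQLFTest) over all genes with Benjamini-Hochberg adjustment, in 5 comparisons. A call needed an adjusted p under 0.05 and a fold over 1.5. The study used the same thresholds but with DESeq2, so the calls here need not match its list. SE is the size of the log2 change divided by the square root of F. DESeq2 1.42.0 was an alternative. The study describes its RNA-seq replicates as biological, whereas the labels do not tie them to separate cultures, so p-values measure the spread between these libraries. On simulated data the edgeR test called 191 to 200 of 200 changed genes. The changed genes were drawn from well-counted genes and changed by more than the fold threshold of 1.5. The simulation therefore does not show how the test performs at low counts or for changes near that threshold. Its counts followed the kind of model that edgeR fits, with the same dispersion for every gene, which favours high recovery. False calls in the simulation are not reported here.

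Levels are TMM-scaled CPM per kilobase of exon of the canonical transcript in GENCODE v44; this length was chosen after the data were seen. 27 of the 44 collagens overlap another gene. The members and lists were chosen with earlier results of these data known. Named genes were all collagens called in any comparison, the 5 highest per line, the type IV head-to-head pairs and, for each role, pathway genes called in both lines, at most 4, or else the 2 largest called in one. The breakdown genes called lower are named as well. Sequences are from RefSeq windows, matched for 32 collagens. Collagens on chromosome 8, which are COL14A1 and COL22A1, were left out of this search, whereas the shares over all windows left out no chromosome.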

Additional observations from a re-analysis of the deposited data

Results flagged for a closer look

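The response to rapamycin differed between SK-MEL-28 and A375, by the test of the difference itself at an adjusted p under 0.05 from edgeR, for 5 of 37 collagens. The response in SK-MEL-28 minus that in A375 was -1.23 on the log2 scale for COL5A3, -0.71 for COL6A3, -0.46 for COL11A2 (adjusted p = 0.0143), -0.43 for COL6A1 (adjusted p = 0.00189) and -0.35 for COL12A1 (adjusted p = 0.0495). COL5A3 and COL6A3 differed by more than 1.5-fold, and the other 3 did not. By adjusted p alone, 5.62% of all genes tested differed.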

How the results depend on the processing

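Without the fold threshold, 12 collagens passed with rapamycin in A375, 13 in SK-MEL-28 and 5 in the difference of the responses, and edgeR's test against a fold of 1.5 called 4 in SK-MEL-28 and 0 in the difference, where 1 had an unadjusted p under 0.05 and the standard DESeq2 test called 3. Leaving out 1 library gave 3 to 4 calls in A375, 7 to 8 in SK-MEL-28, 2 to 3 in the difference, 20 to 22 between the lines under etoposide and 19 to 23 with rapamycin. The fibrillar share was 12.4% in A375, against 20.6% in SK-MEL-28 without division by length, and 10.6% and 19.7% with the union of all exons, which was added after seeing the data. The basement membrane share was 27.8% and 31.2%, or 13.8% and 16.3%, in the same order, 16.3% and 21.8% for type IV alone, and 21.0% and 26.5% with COL7A1 and COL17A1 added. Leaving out 1 library gave fibrillar shares of 7.67% to 7.91% and 14% to 14.4%, and basement membrane shares of 18.9% to 19.7% and 23.7% to 24.0%. Of 1116 alternatives for 74 member values, 1061 kept the direction and the call, 53 lost the call and 2 turned the direction: COL6A2 with rapamycin in SK-MEL-28, which ranged from -0.11 to 0.019 without 1 library, was above 0 without etoposide + rapamycin replicate 3 (0.019) or etoposide replicate 2 (0.015). No test called it under any of these alternatives.

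The replicate numbers did not pair the libraries, since same-numbered libraries correlated between -0.065 and 0.037 in their deviations, none over 0.1. With the replicate number as a replicate block 4, 8, 2, 22 and 22 collagens were called in the 5 comparisons, as without it. Collagens under 1 CPM limit what depth can show, and an expression minimum of 0.5 or 2 CPM gave 30 or 25 genes in A375 and 32 or 25 in SK-MEL-28. Causes were not tested.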
